A study of Mus musculus with 6 samples.

Results

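The mitochondrial ribosomal protein genes were taken as the genes whose symbol on the array begins with Mrpl or Mrps and a digit, and followed in olfactory epithelium of Harlequin mice and their littermates. The array held 156 probe sets for 76 such genes, 47 Mrpl and 29 Mrps, out of 18193 genes named by a single-gene probe set. All 76 passed the limit on low signal, and they were tested among 13219 genes. The mice were 3 male Harlequin mutants (Hq/Y, strain given as B6CBACAw-J/A-Pdcd8-Hq/J) and 3 male littermate controls (+/Y, strain given as B6CBACa), all 6 months old and profiled on 1 Affymetrix array each. The Harlequin allele lowers expression of apoptosis-inducing factor, encoded on the X chromosome by Aifm1 (Pdcd8 in the strain name), and it is present in every cell of the body, so nothing in the design limits it to 1 cell type of the epithelium. The 2 strain names differ along with the genotype, and a difference in background cannot be told apart from the mutation. The design asks which genes differ between mutant and control epithelium, in a model of neurodegeneration under oxidative stress.

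The mitochondrial ribosome makes the few respiratory chain and ATP synthase proteins that are encoded in mitochondrial DNA. Its RNAs come from the mitochondrial genome, but all of its proteins are encoded in the nucleus, made in the cytosol and imported. The Mrps proteins build the small subunit, which reads the messenger RNA, and the Mrpl proteins build the large subunit, which forms the peptide bond and feeds the new chain to the inner membrane. Apoptosis-inducing factor is itself a mitochondrial flavoprotein that is needed for normal amounts of complex I, a respiratory complex whose core holds several products of this ribosome. Olfactory sensory neurons, which are renewed throughout life, are rich in mitochondria in their dendrites and cell bodies.

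Signals are scaled probe set intensities, and differences are log2 differences of signal plus 16, Harlequin minus control, each from the gene's probe set with the highest mean. Because probe sets bind with different strength, signals are compared between arrays and not between genes. The 3 Harlequin arrays had median probe set signals of 109.6 to 113.4, and the 3 control arrays 107.9 to 119.7. Gapdh probe sets at the 3' end, set against those at the 5' end as a check on intact RNA, gave ratios of 0.729 to 0.790 in Harlequin and 0.740 to 0.846 in controls. The tissue carried its defining transcripts, with Omp, the marker of mature olfactory neurons, at 15891.8 to 18821.7 in Harlequin and 16391.9 to 17347.8 in controls, and Cyp2g1, a cytochrome P450 of sustentacular cells, at 17439.0 to 17864.0 and 16585.7 to 18072.4. Aifm1 itself was at 335.4, 221.1 and 211.2 in the Harlequin mice, against 1239.9, 1255.6 and 1128.2 in the controls. Every Harlequin array was far below every control array, as the labels have it. Aifm1 fell by 2.20 on the log2 scale (SE 0.18, limma adjusted p = 0.0158, exact two-sided permutation p = 0.1, the smallest possible with 3 against 3). Its call was lost without the intensity trend (limma adjusted p = 0.0887), and when any 1 control array was left out (0.0616 to 0.097). In whole tissue, fewer cells of a type and less RNA per cell cannot be told apart.

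No mitochondrial ribosomal protein gene changed at an adjusted p under 0.05 in limma. The count was 0 of 76, and the smallest adjusted p among them was 0.981. Over all genes tested, 4 passed, or 0.0303%. At an unadjusted p under 0.05 there were 3 of the 76, all higher in Harlequin, against 4.58% of all genes tested (2% higher). Signals of the 2 genotypes did not overlap for 5 members, 4 higher and 1 lower in Harlequin, where 10.4% of all genes tested were apart in this way.

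The intervals say how large a change these arrays would leave room for. At each gene's brightest probe set, 70 of the 76 genes had the whole 95% interval of the difference within 1.5-fold in either direction. All 29 Mrps genes were among them. Over all genes tested the share within 1.5-fold was 67.2%, a figure not matched for signal. The median half-width of the interval was 0.26 for the members and 0.34 for all genes tested, on the log2 scale. The 6 genes whose interval reached beyond 1.5-fold at the brightest probe set were Mrpl13, Mrpl27, Mrpl34, Mrpl35, Mrpl40 and Mrpl55. A change of that size was not resolved for them. Some dimmer probe sets above the signal limit also reached beyond it, among Mrps genes those of Mrps5, Mrps9, Mrps21 and Mrps23 (-0.26 to 1.12 for Mrps9). Differences were below 0.1 in size for 51 of the 76 genes and below 0.2 for 68. The shares over all genes tested were 46.7% and 74.9%, again not matched for signal.

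**Figure D1:**
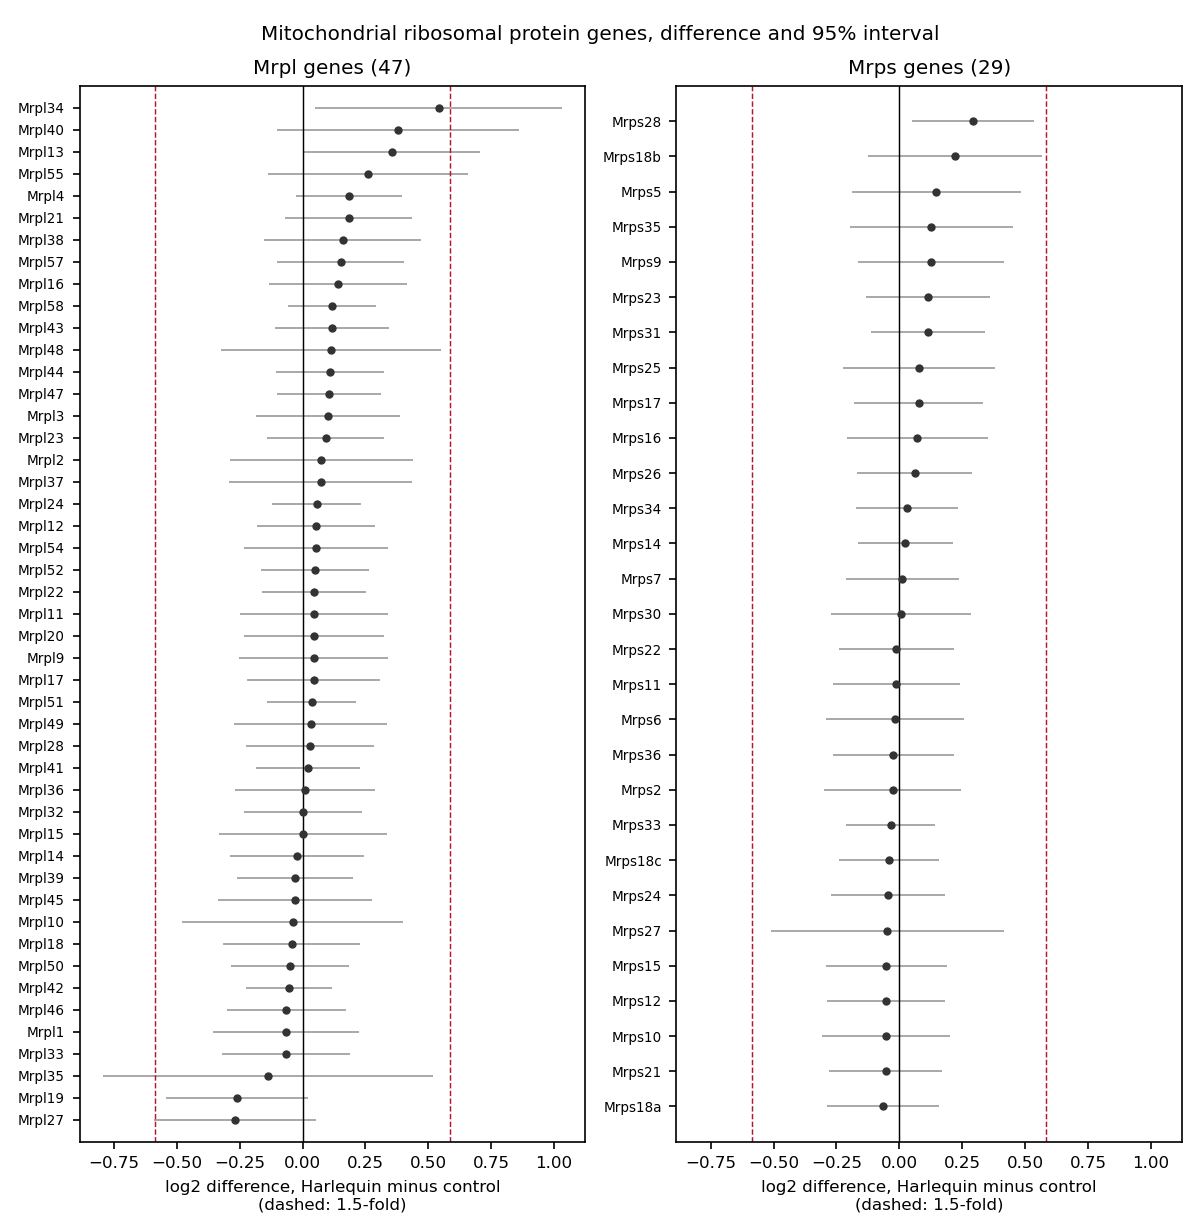
Log2 difference, Harlequin minus control, at the brightest probe set of each of the 47 Mrpl genes (left) and 29 Mrps genes (right). Points give the limma estimate and bars its 95% interval (3 arrays each). Dashed lines mark 1.5-fold, and 70 of the 76 intervals lie between them, with 6 Mrpl intervals reaching beyond.

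The large and small subunit genes were set side by side. The median difference was 0.046 over the 47 Mrpl genes and 0.0077 over the 29 Mrps genes, against 5.2e-05 over all genes tested. Of the Mrpl genes 34 lay above 0 and 13 below, and of the Mrps genes 15 above and 14 below, where 50% of all genes tested lay above 0. Differences ran from -0.27 to 0.54 among Mrpl genes and from -0.065 to 0.29 among Mrps genes. The 2 medians differed by 0.039. Array by array, the Mrpl median minus the Mrps median was 0.070, 0.061 and -0.047 in Harlequin, and -0.016, -0.00030 and 0.016 in controls. The control values lay inside the range of the Harlequin values, so large and small subunit genes were not separated by genotype beyond the spread between mice.

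The medians were also read on each array. Each gene's log2 signal was taken relative to its mean over the 6 arrays. The Mrpl median was 0.13, 0.020 and -0.064 on Harlequin arrays 1, 2 and 3, and -0.036, 0.033 and -0.040 on control arrays 1, 2 and 3. For Mrps genes it was 0.062, -0.041 and -0.017 in Harlequin mice, and -0.019, 0.033 and -0.056 in control mice. In both subunits Harlequin 1 was the highest array and control 2 the next, and the genotypes overlapped. The 33 complex I subunit genes had the same 2 arrays on top and Harlequin 3 lowest, at 0.052, -0.010 and -0.047 in Harlequin and 1.7e-05, 0.040 and -0.024 in controls. Of the 76 genes, 36 had their highest signal of all 6 arrays on Harlequin 1, or 47.4%, against 18.4% of all genes tested, and 26 had their lowest on Harlequin 3, or 34.2%, against 16.5%. Without Harlequin replicate 1 the median was 0.00053 for Mrpl and -0.031 for Mrps genes, and 33 of the 76 lay above 0. Within a genotype the members had a median SD of 0.12 on the log2 scale, against 0.18 over all genes tested, again not matched for signal. The 33 complex I subunit genes had narrower intervals of the difference than the members, with a median half-width of 0.19 against 0.26.

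The marker lists of horizontal basal cells, respiratory ciliated cells and neutrophils had the same order over the Harlequin arrays as the Mrpl genes. These lists were picked for that order, and none of them had the Mrpl order over the controls. Immature olfactory neuron, sustentacular cell and olfactory bulb markers had the Mrpl order over the controls and not over the Harlequin arrays. The 3 horizontal basal cell markers Krt5, Krt14 and Trp63 had a median deviation of 0.50, -0.18 and -0.31 on Harlequin arrays 1, 2 and 3, and -0.24, 0.31 and -0.00086 on control arrays 1, 2 and 3. The 4 markers of respiratory ciliated cells were at 0.22, -0.073 and -0.27 in Harlequin and -0.087, -0.021 and 0.14 in controls. The 7 neutrophil markers were at 0.71, 0.55 and -0.072 in Harlequin and -0.15, -1.57 and 0.55 in controls. Mature olfactory neuron markers ran the other way in Harlequin, with -0.039, 0.027 and 0.063, and were at 0.045, -0.024 and -0.043 in controls. Between genotypes, all 7 neutrophil, all 3 tested erythroid and all 4 tested B and plasma cell markers lay above 0 (medians 0.78, 1.46 and 0.44). Of 7 macrophage markers 5 lay above 0 (median 0.20), and all 7 fibroblast markers lay below (-0.52). In limma 0 of the genes of each of these lists passed. At an unadjusted p under 0.05 there were 0 neutrophil, 3 erythroid, 1 B and plasma cell, 2 macrophage and 2 fibroblast markers, against 4.58% of all genes tested. The part of any of these cells in the ribosomal protein values was not tested.

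**Figure D2:**
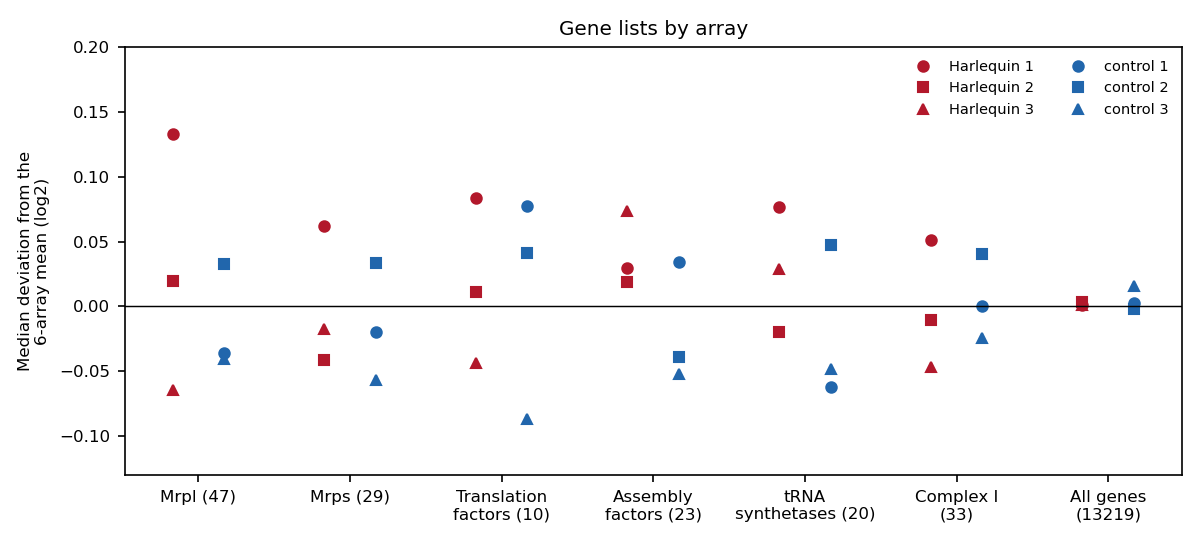
Median log2 deviation of each list's genes from their mean over the 6 arrays, with 1 symbol per array, Harlequin arrays in red to the left of control arrays in blue, and the number of genes in brackets. For both Mrpl and Mrps genes Harlequin 1 is highest (0.13 and 0.062). The other Harlequin arrays lie among the controls for Mrps genes, and Harlequin 3 lies below all controls for Mrpl genes (-0.064).

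Within the large subunit, Mrpl34 had the largest difference. Mrpl34, the counterpart of a short RNA-binding protein of the bacterial large subunit, was at 1188.3, 1239.1 and 938.2 in Harlequin, against 944.4, 867.1 and 535.5 in controls. The lowest Harlequin array lay just under the highest control array, and control 3 stood well below the rest. The difference was 0.54 (SE 0.21, 95% interval 0.051 to 1.03, limma adjusted p = 0.981), or 1.46-fold. A dimmer probe set of the gene, under the limit on low signal, differed by -0.99, and the mean over both gave -0.22.

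Mrpl13, another protein with a bacterial counterpart, was at 3601.2, 3158.5 and 2487.2 in Harlequin, against 2743.7, 2329.2 and 2102.7 in controls. Its difference was 0.36 (95% interval 0.0070 to 0.70, limma adjusted p = 0.981). Harlequin 3 lay below control 1, so the groups overlapped. Both other probe sets of Mrpl13 above the signal limit lay on the other side of 0, at -0.10 and -0.14. Mrpl40, a protein found only in mitochondrial ribosomes and encoded in the human DiGeorge deletion region, was at 1173.1, 1049.9 and 681.3 in Harlequin, against 752.8, 602.8 and 828.8 in controls. The difference was 0.38 with an interval that spanned both signs (-0.10 to 0.86), and Harlequin 3 lay among the controls.

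Mrpl4, whose bacterial counterpart lines the exit tunnel, was higher on all 3 Harlequin arrays. Its signals were 1702.2, 1512.4 and 1563.8 in Harlequin, against 1418.1, 1375 and 1402.1 in controls, a difference of 0.18 (95% interval -0.027 to 0.39, limma adjusted p = 0.981). The controls lay close together, and the gap between the genotypes was smaller than the spread of the Harlequin arrays. Mrpl47 and Mrpl58 were also apart, at differences of 0.11 and 0.12. Mrpl58, a peptidyl-tRNA hydrolase that frees stalled ribosomes, was at 3809.7, 3520.8 and 3799.7 in Harlequin, against 3448.7, 3443.3 and 3354.2 in controls, while its dimmer probe set differed by -0.29. Taking higher values only, groups were apart for 4 of the 76 members and for 5.02% of all genes tested.

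Lower signal on all 3 Harlequin arrays was seen for 1 member, Mrpl19, against 5.34% of all genes tested. Mrpl19, counterpart of a bacterial protein at the interface of the subunits, was at 613.5, 606 and 502.9 in Harlequin, against 667.3, 672.3 and 728.3 in controls. The difference was -0.26 (SE 0.12, 95% interval -0.54 to 0.020, limma adjusted p = 0.981). All 3 of its probe sets above the signal limit lay below 0, at -0.26, -0.26 and -0.20. Mrpl27, whose bacterial counterpart reaches the site of peptide bond formation, was at 4763.9, 4108 and 3163.9 in Harlequin, against 4526.9, 4743.3 and 5053.5 in controls. The difference was -0.27 (95% interval -0.59 to 0.054), with Harlequin 1 among the controls and Harlequin 3 the lowest array.

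Further large subunit members were read one by one, several of them named for their roles after values were seen. Mrpl12, the stalk protein that engages translation factors, was at 1598.2, 1787.8 and 1473.6 in Harlequin, against 1612.8, 1557.1 and 1497.8 in controls, a difference of 0.054 with an interval of -0.18 to 0.29. Its controls lay wholly inside the range of the Harlequin arrays. Mrpl45, which ties the ribosome to the inner membrane, differed by -0.031 (-0.34 to 0.27). Mrpl23 and Mrpl24, which surround the tunnel exit with Mrpl22, differed by 0.092 and 0.056, and Mrpl22 by 0.046. Mrpl44, a protein with a ribonuclease III fold, differed by 0.11 at its brightest probe set and by 0.045 to 0.13 at its other 3. Mrpl35 was the most variable member, at 964.7, 1415.1 and 672.9 in Harlequin and 1066.7, 1449.6 and 797.3 in controls, and its interval was the widest (-0.79 to 0.52). The 2 genotypes covered nearly the same range.

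**Figure D3:**
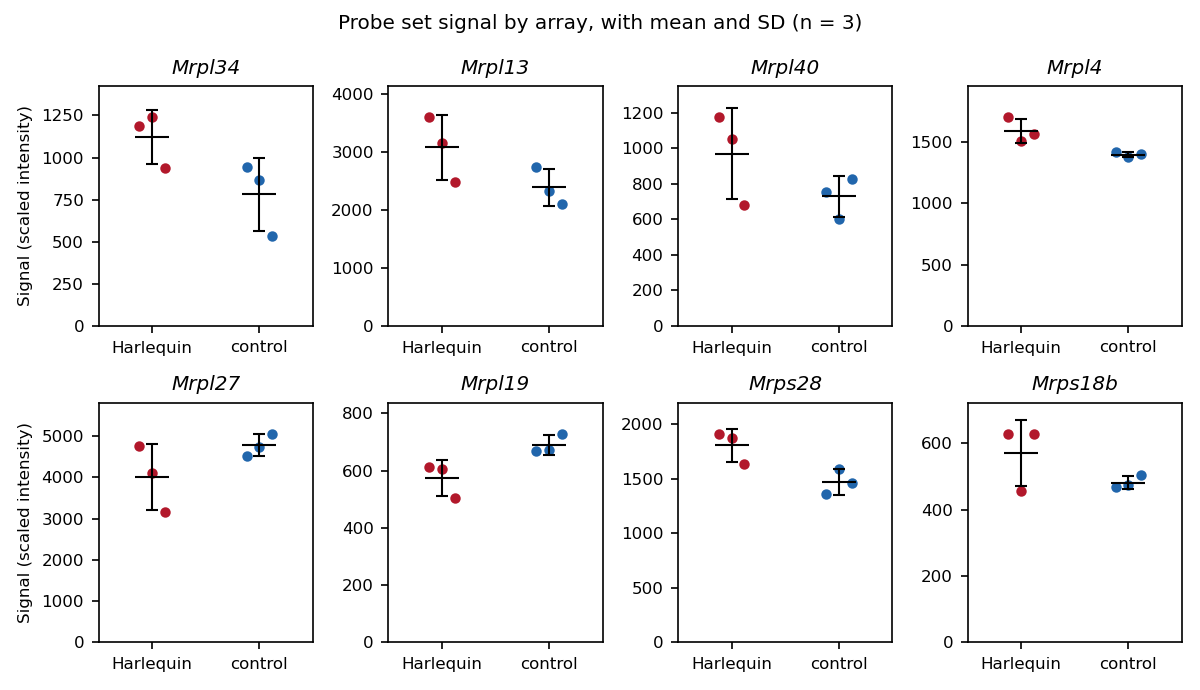
Probe set signal (scaled intensity, linear axis from 0) of 8 members on each array, Harlequin left and control right, with points for arrays and bars for mean and SD (n = 3). Mrpl4 and Mrps28 are higher on every Harlequin array and Mrpl19 lower, while the 5 other genes overlap.

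Within the small subunit, Mrps28 had the largest difference and the smallest unadjusted p of all 76 members. Mrps28, a small subunit protein placed at the position of bacterial S1, was at 1911, 1872.1 and 1634.7 in Harlequin, against 1360.9, 1591.5 and 1457.4 in controls. Every Harlequin array lay above every control array. The means were 1806 ± 150 in Harlequin and 1470 ± 116 in controls (SD, n = 3), a difference of 0.29 (SE 0.11, 95% interval 0.050 to 0.54, unadjusted p = 0.0237 and adjusted p = 0.981 in limma). It is represented by a single probe set, and over the alternative settings and the arrays left out its difference ran from 0.24 to 0.36.

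The 3 Mrps18 paralogs, related to the bacterial S18 protein, all had intervals that spanned 0. Mrps18b was at 628.8, 455.1 and 626.7 in Harlequin, against 467.9, 473.7 and 503.8 in controls (difference 0.22, interval -0.12 to 0.57), with Harlequin 2 below all controls. Mrps18c, the paralog at the bacterial position, was at 2977.7, 2687.5 and 2930.5 in Harlequin and 2833.9, 3146.8 and 2865.3 in controls (-0.041, interval -0.24 to 0.16). Mrps18a was at 1024.5, 1076.8 and 982.8 in Harlequin and 1095.4, 1107.8 and 1024.1 in controls (-0.065, interval -0.29 to 0.16). The protein of Mrps18a, like that of Mrps30, sits in the large subunit in structures despite its name. Mrps30 differed by 0.0077. Mrps36, whose product is now assigned to the oxoglutarate dehydrogenase complex, differed by -0.023. Counting Mrps18a and Mrps30 with the large subunit and leaving out Mrps36 gave medians of 0.045 for the large and 0.018 for the small subunit.

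Further small subunit members were read in the same way. Mrps12, the counterpart of the bacterial accuracy protein S12, was at 2044.5, 1868.3 and 1765.7 in Harlequin and 1927.1, 2138.1 and 1828.1 in controls (-0.053, interval -0.29 to 0.18). Mrps2, Mrps7 and Mrps11 differed by -0.027, 0.012 and -0.012. Mrps5, whose bacterial counterpart lies at the messenger RNA channel, was at 742.4, 532.3 and 593 in Harlequin and 531.9, 532.3 and 604.1 in controls (0.15, interval -0.19 to 0.48). Mrps22 and Mrps16, mutated in human mitochondrial disease, differed by -0.012 and 0.070. The lowest difference of any Mrps gene was that of Mrps18a. Mrps14 was at 5385.9, 5284.3 and 4718 in Harlequin and 4921.3, 5312.1 and 4882.4 in controls, with an interval of -0.16 to 0.21.

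Genes were also grouped by origin. The 44 genes of proteins with a bacterial counterpart had a median of 0.028, with 27 above 0. The 29 genes of proteins specific to mitochondria had a median of 0.062, with 21 above 0. Within the small subunit the medians were -0.015 over 16 genes with a counterpart and 0.070 over 10 without, and within the large subunit 0.045 over 28 and 0.053 over 19. The 44 genes with a bacterial counterpart included 3 at an unadjusted p under 0.05 in limma, Mrpl13, Mrpl34 and Mrps28. The 29 specific to mitochondria included 0. Among all genes tested 4.58% were under 0.05, and each of the 3 had a limma adjusted p of 0.981.

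Where a gene had several probe sets they often differed in sign. Of the 76 genes 42 had over 1 probe set, up to 8 for Mrpl15, and 33 had over 1 above the signal limit. In 22 of those 33 the probe sets lay on both sides of 0. The spread of the difference within a gene had a median of 0.16 and was largest for Mrps5, at 0.69. The probe sets of Mrps5 ran from -0.38 to 0.31 around 0.15 at the brightest. Over the 131 probe sets above the limit, 77 lay above 0 and 54 below, with a median of 0.032, and 0 passed in limma when every probe set was tested on its own (4 at an unadjusted p under 0.05), where 0.0259% of all probe sets passed and 4.7% had an unadjusted p under 0.05.

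**Figure D4:**
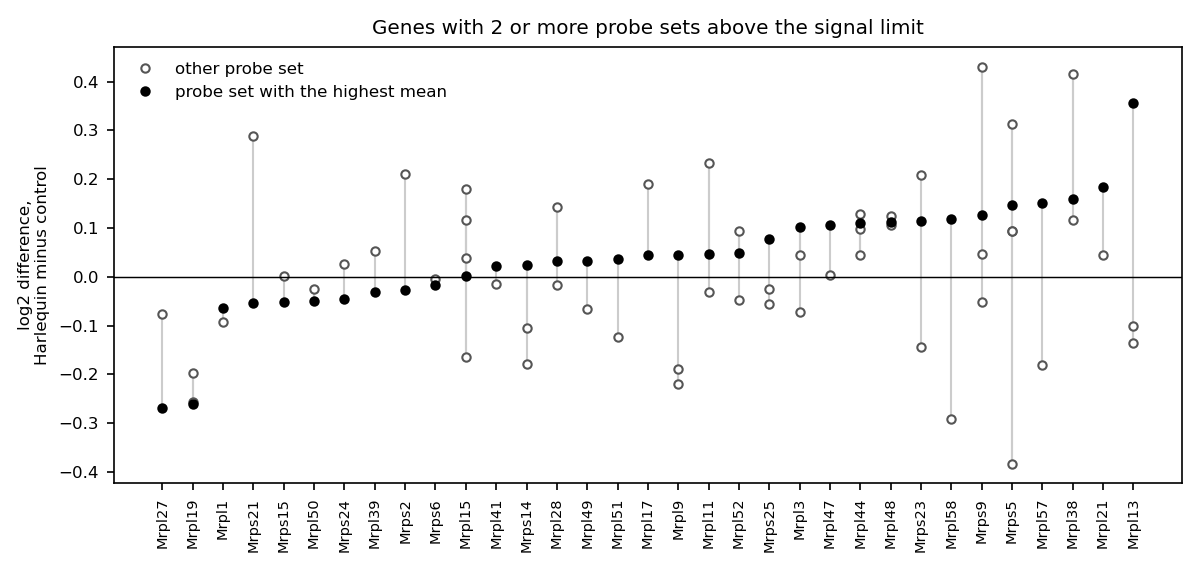
Log2 difference, Harlequin minus control, of every probe set above the signal limit for the 33 members with over 1 such probe set, ordered by the brightest probe set (filled) with the others open and a line joining the probe sets of a gene. In 22 of the 33 genes the probe sets lie on both sides of 0, and Mrps5 has the largest spread, 0.69.

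The rule left out 4 probe sets that name a second gene as well. One of them, naming Mrpl30 and Gm6238, was at 3727.3, 3800.5 and 2626.8 in Harlequin, against 3821.6, 4933.5 and 4072.4 in controls, a difference of -0.35. All 3 Harlequin arrays lay below the controls there, and the source of the signal between the 2 genes cannot be told. Another probe set naming the same pair lay the other way, with dim signals of 6.8, 14.1 and 25.7 in Harlequin, all above the 2.3, 5.4 and 2.3 of controls, a difference of 0.67. The probe set naming Mrpl53 and Ccdc142 differed by 0.17 and the one naming Mrps34 and Nme3 by 0.099.

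The start sites of these genes show how large and small subunit genes can share a stretch of DNA. RefSeq promoter windows (GRCm38.p6, 250 bases before to 50 after each start) matched 67 of the 76 genes. Within 1000 bases, 25 of the 67 had a gene starting in the opposite direction, or 37.3%, against 13.1% of the protein-coding genes in the table. In 1 case both genes are members, since Mrpl46 starts 42 bases from Mrps11. Mrps12 starts 147 bases from Sars2, the mitochondrial seryl-tRNA synthetase, Mrpl43 116 bases from Twnk, the mitochondrial DNA helicase, and Mrpl47 308 bases from the complex I subunit gene Ndufb5. Letters of 3 motifs known from promoters of such genes were searched on both strands, the core of the NRF1 site (the capitals in the Mrpl45 window), CCGGAAGT for the ETS factors that include GABP, and AAGATGGC for YY1. Each was found in 12 of the 67 genes, or 17.9%, against 7.17%, 5.69% and 3.57% of protein-coding genes, and the matches of different motifs overlapped in 0 member windows. Over all promoter windows of the same length, the shares were 4.6%, 3.89% and 2.75%. A match is a run of letters and not a measured binding site. The sets compared here, for neighbours and for motifs, were not matched to the members for signal or base composition.

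The windows shown are that of Mrps11, which overlaps the Mrpl46 window, and that of Mrps12, which reaches past the start of Sars2. The others are that of Mrpl45, a large subunit gene with 3 NRF1 matches, and that of Mrpl27, the member with the lowest difference. Each window runs 5′ to 3′ on the gene's own strand, and capitals mark the motif matches. In the Mrps11 and Mrps12 windows the marked letters lie beyond the start of the opposite gene, not between the starts. The window of Mrps11 is chr7:78782881-78783180 on the plus strand, that of Mrps12 chr7:28741772-28742071 on the minus strand, that of Mrpl45 chr11:97315466-97315765 on the plus strand and that of Mrpl27 chr11:94653541-94653840 on the plus strand.
Mrps11: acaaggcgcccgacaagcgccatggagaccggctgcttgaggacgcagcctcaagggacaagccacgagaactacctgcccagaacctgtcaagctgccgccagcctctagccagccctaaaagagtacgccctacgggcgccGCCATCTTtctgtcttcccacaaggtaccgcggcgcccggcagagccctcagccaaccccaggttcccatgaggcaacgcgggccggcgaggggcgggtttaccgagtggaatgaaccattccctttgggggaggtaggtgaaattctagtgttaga
Mrps12: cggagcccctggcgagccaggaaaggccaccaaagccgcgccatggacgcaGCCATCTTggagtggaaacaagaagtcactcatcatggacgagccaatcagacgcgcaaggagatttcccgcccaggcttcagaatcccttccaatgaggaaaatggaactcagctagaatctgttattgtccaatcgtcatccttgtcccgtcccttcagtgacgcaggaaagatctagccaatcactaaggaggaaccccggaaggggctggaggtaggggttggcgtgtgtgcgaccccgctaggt
Mrpl45: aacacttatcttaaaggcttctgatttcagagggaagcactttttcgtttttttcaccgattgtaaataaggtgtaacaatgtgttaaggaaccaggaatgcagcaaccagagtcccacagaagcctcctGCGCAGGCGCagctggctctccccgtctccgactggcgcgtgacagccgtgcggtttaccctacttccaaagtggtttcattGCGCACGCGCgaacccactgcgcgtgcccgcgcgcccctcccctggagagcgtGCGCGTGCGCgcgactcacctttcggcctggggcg
Mrpl27: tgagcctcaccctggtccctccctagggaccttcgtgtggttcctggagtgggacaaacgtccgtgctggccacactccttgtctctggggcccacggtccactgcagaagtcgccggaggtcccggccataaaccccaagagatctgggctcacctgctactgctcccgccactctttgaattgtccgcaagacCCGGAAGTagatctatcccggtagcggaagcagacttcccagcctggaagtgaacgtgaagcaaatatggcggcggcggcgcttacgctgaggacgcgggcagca

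Genes on the 2 sides of these starts gave the following values. Mrps11 was at 692.9, 779.7 and 787.3 in Harlequin and 800.2, 759.7 and 718.1 in controls (-0.012). Mrpl46, read away from it, was at 1478.2, 1422.4 and 1574.6 in Harlequin and 1408.3, 1643.4 and 1635.5 in controls (-0.064). Both overlapped between genotypes. Sars2 differed by 0.22 (interval -0.27 to 0.71) beside -0.053 for Mrps12, Twnk by 0.033 beside 0.12 for Mrpl43, and Ndufb5 by -0.11 beside 0.11 for Mrpl47. Of the 20 opposite genes that were tested, 0 had an unadjusted p under 0.05 in limma, against 4.58% of all genes tested. The 20 include Mrps11 and Mrpl46 themselves. Opposite genes under the signal limit were not counted, and their differences ran from -0.87 to 0.26 (Ighmbp2). The lowest was that of 4930473A02Rik beside Mrps26 (unadjusted p = 0.0244 in limma without the signal limit).

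The rest of the mitochondrial translation pathway was read from 5 further lists, and 0 genes of each list passed in limma. Of 4 ribosomal proteins with other symbols, Dap3, a GTP-binding small subunit protein first found as a mediator of cell death, was at 2037.5, 1791.6 and 1431.1 in Harlequin and 1547.8, 1764 and 1431.8 in controls (0.14, interval -0.19 to 0.47). Gadd45gip1 differed by 0.22, Chchd1 by -0.034 and Ptcd3 by -0.059. Of 10 translation factors, 6 lay above 0 (median 0.0064), among them the elongation factor Tufm at 0.31 (-0.076 to 0.70) and its exchange factor Tsfm at 0.22 (-0.20 to 0.65). Both overlapped between the genotypes.

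Of 23 assembly and rRNA factors 15 lay above 0, with a median of 0.068. In limma 1 had an unadjusted p under 0.05, against 4.58% of all genes tested. Malsu1, which binds the large subunit late in its assembly, was at 1208, 1014.7 and 1026.3 in Harlequin, against 841.1, 798.4 and 956.5 in controls (0.32, interval 0.042 to 0.59, limma adjusted p = 0.981). Gtpbp10, a GTPase of large subunit assembly, was at 587.8, 575.8 and 558.6 in Harlequin, against 612.5, 708.5 and 722.3 in controls (-0.24, interval -0.50 to 0.027). These 2 large subunit factors lay on opposite sides of 0, each with all Harlequin arrays on 1 side of the controls. In the list of 23, groups were apart for 2 genes higher and 2 lower, where 10.4% of all genes tested were apart. Mpv17l2 (0.18) was also higher on every Harlequin array and Rpusd4 (-0.11) also lower. The 20 tested genes of the aminoacyl-tRNA synthetase list, which also holds the amidotransferase genes Gatb, Gatc and Qrsl1, had the highest median of the 5 lists, 0.11. Of these 20 genes 15 lay above 0, among them Pars2 (0.27, interval -0.032 to 0.56) and Aars2 (0.64, interval -0.14 to 1.41).

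Of 12 mitochondrial transcription and messenger RNA factors 6 lay above 0 (median -0.027). Pnpt1, the mitochondrial polynucleotide phosphorylase, was at 571.2, 622.2 and 717 in Harlequin, against 760.3, 845.5 and 738.9 in controls (-0.29, interval -0.58 to -0.0056, limma adjusted p = 0.981). Tfam, which packages mitochondrial DNA and starts its transcription, was at 1048.6, 1035.5 and 1047.1 in Harlequin, against 1079, 1222.6 and 1335.8 in controls (-0.21, interval -0.46 to 0.041). Both were lower on every Harlequin array, as were 5.34% of all genes tested. Polrmt, the polymerase that Tfam works beside, differed by 0.0014. For comparison, the 33 tested complex I subunit genes had a median of -0.035, with 14 above 0. Of the 33, 2 had an unadjusted p under 0.05 in limma, Ndufv1 (0.29) and Ndufs7 (0.21), against 4.58% of all genes tested.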

How the data were processed

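RNA of microdissected olfactory epithelium was labelled and hybridised to 1-colour Affymetrix arrays, 1 for each of 3 Harlequin and 3 control mice, per the labels' protocols. The deposited values are linear intensities of 45101 probe sets, scaled on each array to a trimmed mean of 500 with 2% left out at each end, as the values themselves show. The software behind them is not given in the sources used here. After leaving out 64 control probe sets, 34945 probe sets named 1 gene in the platform annotation, 932 several and 9160 none. Values were taken as log2(value + 16), with the probe set of highest mean log2 signal for each gene, and genes at or under the 40th percentile of probe set signal (61.1) were left out. limma 3.58.1 in R 4.3.3 (lmFit, eBayes with intensity trend) gave two-sided tests with Benjamini-Hochberg adjustment over 13219 genes and 95% intervals, and was tested on simulated data first. Array number limits the precision. The labels call the mice biological replicates.

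A naming rule took the members with the smallest p in each direction and subunit, and those of highest and lowest signal. It also took those whose probe sets disagreed strongly and genes with a known special role. It gave 33 genes, and many of them, such as Mrpl42, Mrpl51 and Mrps27, are not given here with array values. Genes outside that rule, such as Mrpl22, Mrpl44, Mrps2, Mrps22 and Polrmt, were named for their roles after values were seen. Mrpl35 was named for its spread and Mrpl58 for its groups lying apart, both also after values were seen. Mrps11, Mrpl43, Mrpl47 and their neighbours were named for their start sites. The members and gene lists were chosen with earlier results of these data known. Alternatives covered the pseudocount, filter, scaling, variance model, array weights, probe set choice, subunit assignment, a replicate block and each array left out. Promoter windows came from RefSeq (GRCm38.p6).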

Additional observations from a re-analysis of the deposited data

How the results depend on the processing

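Under all alternatives run, 0 mitochondrial ribosomal protein genes passed in limma, with adjusted p of at least 0.892 for every member. The Mrpl median ran from 0.00053 without Harlequin replicate 1 to 0.095 without Harlequin replicate 3, and the Mrps median from -0.031 without Harlequin replicate 1 to 0.038 with median scaling, where the median of all genes was 0.030. The Mrpl median minus the Mrps median was 0.039, ran from 0.011 to 0.087 with 1 array left out, and was 0.087 without Harlequin replicate 3. The cause was not tested. Aifm1 kept its direction, at -2.40 to -2.08 with 1 array left out. Its call was lost without the intensity trend (-2.20, limma adjusted p = 0.0887), with the replicate block (-2.20, 0.0605) and without control replicate 1, 2 or 3 (0.097, 0.0616 and 0.068). Arrays sharing a number gave no sign of deviating together (correlations of -0.24, -0.030 and 0.058). With 3 arrays a side, each taken relative to its genotype's mean, these values cannot exclude that the numbers pair the mice. With the replicate block 0 members and 0 of all genes passed, against 4 of all genes without it. The block left the medians as they were. Of the 33 genes taken by the naming rule, including those not shown, 14 kept 1 sign under all 18 settings. When the probe sets of a gene were averaged, 9 moved by more than the spread between replicates, among them Mrpl13 (0.079) and Mrpl34 (-0.22).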
